A study of Arabidopsis thaliana with 6 samples.

Results

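The comparison described here sets leaf mRNA of the Arabidopsis thaliana triple mutant idn2-1 idnl1-1 idnl2-1 against that of the double mutant idnl1-1 idnl2-1. By their labels the genotypes differ in the idn2-1 allele, so the comparison asks what loss of IDN2 added where IDNL1 and IDNL2 were already lost. All plants were of ecotype Columbia-0, grown in constant light, and the leaves were 3 weeks old. Of the 6 libraries of the series, 4 entered the comparison: the triple mutant, the double mutant and both wild type (WT) libraries. Each mutant genotype had 1 library, so a difference between genotypes cannot be told apart from one between libraries. The labels do not say whether the WT libraries came from separate plants. The idn2 single mutant and the nrpe1-11 mutant, which lacks the largest RNA polymerase V subunit, are used only where they bear on the same genes. The genotype label of the single mutant reads idn2 mutant and gives no allele. It is called idn2-1 here on the assumption that it carries the allele of the triple mutant. All 32947 genes of the deposited tables were taken, of which 22032 reached 1 RPKM (reads per kilobase, scaled by library size) in at least 1 of the 4 libraries and were compared. Read numbers, recovered from the RPKM, are given without the 1 read that the deposited values carry for every gene, so a gene with 0 reads has an RPKM above 0.

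RNA-directed DNA methylation (RdDM) is the plant pathway in which small RNAs, paired with transcripts of RNA polymerase V, guide DNA methylation to transposons and some genes. IDN2 is a protein that binds double-stranded RNA and acts in this pathway in a complex with its relatives IDNL1 and IDNL2, which are also called FDM1 and FDM2. In Arabidopsis leaves the demethylase gene ROS1 is known to need methylation at its promoter for expression, so its mRNA falls when RdDM is lost.

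The mutated genes were examined first. IDNL1 had 1 read in the triple mutant and 6 in the double mutant, against 50 and 144 in the WT libraries, so its mRNA was low in both mutants. IDNL2 had 5 and 11 reads, against 14 and 46 in WT. IDN2 had 136 reads in the triple mutant (14.8 RPKM), 316 in the double mutant (16.5 RPKM), 163 in WT replicate 1 (18.0 RPKM) and 337 in WT replicate 2 (17.1 RPKM). The idn2-1 library itself held 118 IDN2 reads (12.4 RPKM). The level of IDN2 mRNA thus does not separate the triple from the double mutant, and it gives no check of the idn2-1 label. Leaf mesophyll markers were high in every library, with summed levels of 794.72 to 1397.15 RPKM over 6 genes. Over the 4 compared libraries the summed levels were 0.785 to 2.15 RPKM for 4 seed markers, 0.917 to 3.11 for 5 pollen and anther markers, 6.58 to 14.2 for 7 floral organ markers and 61.0 to 73.3 for 7 root markers.

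Depth differed between the libraries compared. The triple mutant library held 2793873 reads and WT replicate 1 held 2737943, whereas the double mutant library held 5819494 and WT replicate 2 held 5975802. Triple minus double is therefore a shallow library minus a deep one, as is WT replicate 1 minus WT replicate 2. Over all tested genes the median of log2(RPKM + 1) shifted by -0.14 from the double to the triple mutant and by -0.16 from WT replicate 2 to WT replicate 1. In the fourth decile of expression these medians were -0.32 and -0.31, and in the highest decile 0.25 and 0.21. Photosynthesis genes, which are highly expressed in leaves, had a median triple minus double of 0.82 and a WT median of 0.90 over 21 genes. The highest RPKM of any gene was 484.55 in the triple mutant and 502.21 in WT replicate 1. It was only 266.57 in the double mutant and 258.98 in WT replicate 2. Differences among the highest genes may thus be compressed, and the cause was not tested. Because of these depth shifts the WT difference of each gene was subtracted from its triple minus double difference, and the result is called the corrected difference. Its median over all genes was -0.02, and in each decile it lay between -0.05 and 0.02.

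**Figure D1:**
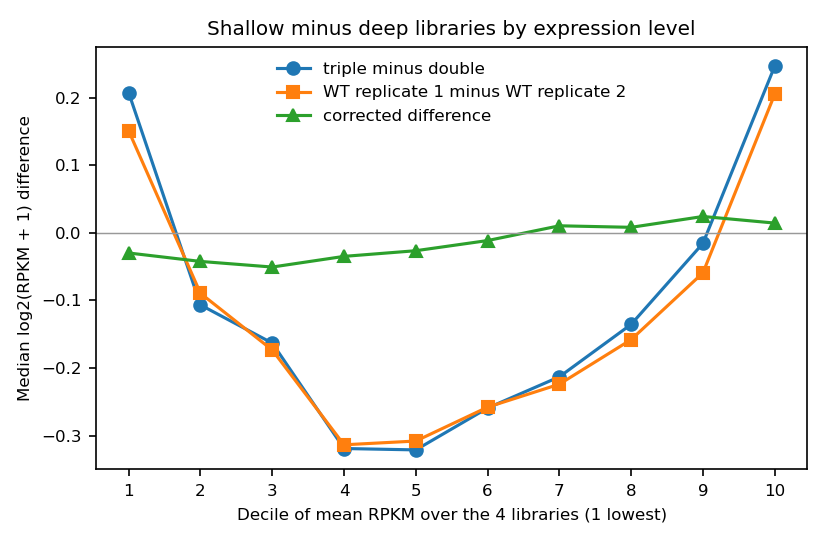
Median difference in log2(RPKM + 1) between a shallow and a deep library, by decile of mean expression, for triple minus double, for the WT pair and for the corrected difference. The curves for the mutants and the WT pair run together, from -0.32 and -0.31 in the fourth decile to 0.25 and 0.21 in the highest, and the corrected difference stays between -0.05 and 0.02.

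Most leaf mRNAs had nearly the same level in both mutants once the WT difference was taken off. A corrected difference of 2-fold or more was found for 252 genes with higher levels in the triple mutant (1.14% of the genes tested) and 244 with lower levels (1.11%). No test can be made of these values, because depth and genotype leave no residual degree of freedom. They depended on read number. Among the 14694 genes with at least 200 reads over the 4 libraries, 17 passed 2-fold (0.116%), and among the 1532 genes with 10 to 49 reads, 220 did (14.4%). Without the WT subtraction 52 genes were higher and 237 lower, and with a smooth WT trend in its place 740 were higher and 146 lower.

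A corrected difference can pass 2-fold through the WT libraries alone. A narrower set, called the supported subset, was therefore kept: genes past 2-fold with and without the subtraction, in 1 direction, whose ratio of read ratios had an exact 95% interval clear of 1. That ratio is triple over double, divided by WT replicate 1 over WT replicate 2, each as a share of its library's reads. The subset held 4 genes with higher levels in the triple mutant (0.0182%) and 43 with lower levels (0.195%). The rule itself favours lower genes, because without the subtraction 52 genes were past 2-fold upward and 237 downward. In the WT pair, replicate 1 was likewise past 2-fold higher for 70 genes and lower for 166. The corrected difference alone was balanced, at 252 and 244. The median gene of the subset had 79 reads over the 4 libraries, and 7 of the 43 had 0 reads in the triple mutant. The intervals cover counting error only and are not adjusted for the number of genes. In 38 of the 43 genes the double mutant also stood above WT replicate 2 of like depth, and in all 43 the triple mutant stood below WT replicate 1, as the way the subset was formed favours. By a rule on reads alone, added after the data had been seen (a ratio of read ratios of at least 2-fold with its interval clear of 1), 106 genes were higher in the triple mutant (0.481%) and 94 lower (0.427%).

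**Figure D2:**
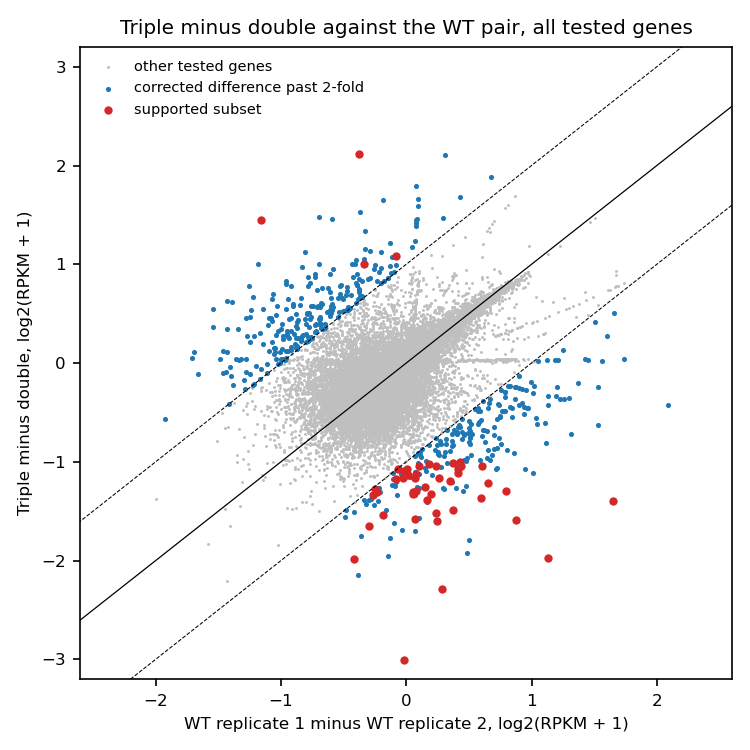
Each point is 1 of the 22032 tested genes, with the difference between the WT libraries on the x axis and triple minus double on the y axis, both in log2(RPKM + 1). The solid line marks equal differences and the dashed lines a corrected difference of 2-fold. The supported subset lies mostly below the lower line, with 43 genes lower and 4 higher in the triple mutant. Its rule, which also asks for 2-fold without the WT subtraction, favours lower genes.

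The genes of the subset with at least 200 reads over the 4 libraries were AT3G27540, AT1G15405, AT1G51430, TAS2, AT1G13920 and AT2G35750, all lower in the triple mutant. AT1G15405, annotated as a non-coding RNA gene (TAIR8 chromosome 1, 5297870 to 5298161), had 22 reads in the triple mutant and 193 in the double mutant, against 31 and 92 in WT. Its RPKM were 28.0, 113.91, 39.7 and 53.2 in that order, so the double mutant stood above every other library and the triple mutant below both WT libraries. The corrected difference was -1.57 and the ratio of read ratios 0.324 (95% interval 0.169 to 0.614). The idn2-1 library had 28 reads of it and the nrpe1-11 library 42, at 34.2 and 47.5 RPKM. AT2G35750, an uncharacterised gene on chromosome 2 (15036908 to 15037369), had 16, 105, 28 and 52 reads in the triple mutant, the double mutant, WT replicate 1 and WT replicate 2. It overlaps another gene, AT2G35747, and without strand its reads cannot be assigned to either.

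AT3G27540 encodes a protein of the beta-1,4-N-acetylglucosaminyltransferase family (chromosome 3, 10206545 to 10208543). It had 28 reads in the triple mutant, 212 in the double mutant and 51 and 140 in the WT libraries, which is 5.13, 18.22, 9.39 and 11.7 RPKM. The triple mutant was the lowest of the 6 libraries and the double mutant the highest. The ratio of read ratios was 0.347 (0.200 to 0.591). It ranked just below the named genes of the subset and was chosen for its read number after its values were seen, as was TAS2. TAS2, the precursor of trans-acting small interfering RNAs (chromosome 2, 16546462 to 16547495), had 27 reads in the triple mutant, 128 in the double mutant and 37 and 81 in WT. Its level was 9.59 RPKM in the triple mutant, 21.3 in the double mutant and 13.3 and 13.2 in WT, with a ratio of read ratios of 0.442 (0.239 to 0.809). The nrpe1-11 library held the highest TAS2 level, 36.1 RPKM. AT1G51430, of the cTAGE family, had 18, 112, 45 and 121 reads in the order triple, double, WT replicate 1, WT replicate 2, and AT1G13920, of the remorin family, had 15, 92, 34 and 91. In both genes the double mutant lay near WT replicate 2 and the triple mutant below WT replicate 1.

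Several of the named genes with lower levels had almost no reads in the triple mutant. AT4G26290, an uncharacterised gene that overlaps AT4G26288, had 0 reads in the triple mutant, 25 in the double mutant and 9 and 21 in WT. With 0 set at a floor of 3 reads for that library, the double mutant was at least 4.001-fold higher. Small auxin up RNA genes, a family of short auxin-induced transcripts, were represented by AT3G61900 with 0, 22, 10 and 18 reads and by AT4G34800 with 0, 12, 8 and 7 reads, in the order triple, double, WT replicate 1, WT replicate 2. The double mutant was at least 3.52-fold higher for AT3G61900 and at least 1.92-fold higher for AT4G34800. Both WT libraries lay nearer to the double than to the triple mutant in these genes.

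Among genes with known products, ELI3-2, a cinnamyl alcohol dehydrogenase induced by pathogen elicitors, had 1 read in the triple mutant, 32 in the double mutant and 7 and 15 in WT. NAC047, a NAC domain transcription factor, had 2, 30, 15 and 29 reads in that order, with a corrected difference of -1.54 and a ratio of read ratios of 0.126 (0.0129 to 0.617). Its level in the idn2-1 library was 1.74 RPKM, between the triple mutant (0.673 RPKM) and WT (3.66 and 3.17 RPKM). ATHAL3B, a flavoprotein, had 2 reads in the triple mutant and 26 in the double mutant, against 7 and 13 in WT. AT4G30370, a RING/U-box protein, had 1 and 19 reads, against 6 and 7 in WT. AT3G62050, annotated as a putative endonuclease or glycosyl hydrolase, had 5 and 42 reads, against 17 and 28. AT2G42930, with a carbohydrate-binding X8 domain, had 0 and 10 reads, against 5 in each WT library, and AT3G26539, uncharacterised, had 1 and 11 against 4 and 2. The remaining 31 genes with lower levels had corrected differences from -2.09 to -1.01.

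The 4 genes with higher levels in the triple mutant rested on few reads as well. AT2G43310, of the ribosomal L18p/L5e family, had 28 reads in the triple mutant and 25 in the double mutant, against 15 and 36 in WT, with a ratio of read ratios of 2.54 (1.06 to 6.26). It overlaps AT2G43320. AT1G76610, a protein of the MIZU-KUSSEI-like family, had 15 and 13 reads, against 8 and 25 in WT. AT5G05300 had 4 reads in the triple mutant and 0 in the double mutant, and the pseudogene AT4G23215 had 7 and 3.

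limma, fitted to all 6 libraries without a depth correction, called 0 genes higher and 13 lower in the triple than in the double mutant at a Benjamini-Hochberg adjusted p under 0.05 (0% and 0.0581% of 22362 genes). At an unadjusted p under 0.05, 129 of the 22362 genes were higher and 378 lower. Together these are fewer than that threshold would pass if no gene differed. The fit takes its spread from the WT pair and assumes that each mutant library varies likewise. With median-of-ratios scaling it called 9 higher and 34 lower, and with no trend in the spread 5 higher and 15 lower. Of the 13 calls, 3 were in the supported subset: AT4G26290, with a log2 difference of -3.01 ± 0.40 (SE) and a limma adjusted p of 1.25e-09, AT1G15405 (-1.99 ± 0.26, limma adjusted p 3.37e-10) and AT2G35750 (-1.52 ± 0.28, limma adjusted p 0.000159). Small nucleolar RNA genes made up 4 of the 13. AT2G20721 (0 reads in the triple mutant, 10 in the double mutant) and AT4G39363 (1 and 15) stayed past 2-fold after the WT subtraction, with corrected differences of -1.76 and -2.29, and AT1G74456 (1 and 13) did not, at -0.25. AT3G47348 had 1 read in the triple mutant and 15 in the double, but WT had 1 and 13, so that its corrected difference was -0.25.

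ROS1, the 5-methylcytosine DNA glycosylase that removes DNA methylation, was low in both mutants and lowest in the triple mutant. It had 16 reads in the triple mutant (0.962 RPKM), 101 in the double mutant (2.79 RPKM), 188 in WT replicate 1 (10.9 RPKM) and 514 in WT replicate 2 (13.7 RPKM). Relative to the WT library of like depth, the read ratio was 0.0834 (95% interval 0.0467 to 0.139) in the triple mutant and 0.202 (0.161 to 0.250) in the double mutant. The intervals of these ratios do not overlap, but they cover counting error only and not the spread between plants or libraries. The ratio of these ratios was 0.414 (0.222 to 0.728), while on the log2(RPKM + 1) scale the corrected difference was -0.64 and did not reach 2-fold. The idn2-1 library stood at 1.32 RPKM, with a read ratio to WT replicate 1 of 0.116 (0.0718 to 0.180), and nrpe1-11 at 2.52 RPKM. limma gave triple minus double an adjusted p of 0.956 for ROS1.

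DML2, a second gene of the same glycosylase family, had 39 reads in the triple mutant, 195 in the double mutant and 57 and 156 in WT, with a ratio of read ratios of 0.523 (0.321 to 0.846). Its level in the double mutant, 5.25 RPKM, was the highest of the 6 libraries, and its level in the triple mutant, 2.22 RPKM, the lowest. Of the 7 demethylation genes, 0 passed 2-fold, 5 lay below 0 and 2 above, and the median corrected difference was -0.16. Over all 22032 tested genes, 11798 lay below 0 and 10234 above. DME, DML3 and IDM1 had ratios of read ratios of 0.885, 1.04 and 0.816, with intervals that include 1.

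MRD1, HEI10 and AT5G35935 were raised over WT in both the triple and the double mutant. The 4 tested genes of the list of methylation-silenced genes had a median corrected difference of -0.50, with 3 below 0, on few WT reads. The other, QQS, went the other way, with a corrected difference of 0.82. MRD1 had 63 reads in the triple mutant (15.1 RPKM) and 165 in the double mutant (18.9 RPKM), against 1 and 0 in the WT libraries. The read ratio of triple over double was 0.795 (0.585 to 1.07). Its overlapping neighbour HEI10, a RING/U-box protein of meiotic crossover formation, had 81 and 214 reads against 5 and 19 in WT, and without strand the reads of these genes cannot be told apart. In idn2-1 alone MRD1 had 7 reads and HEI10 16. The pseudogene AT5G35935 had 85 reads in the triple mutant (4.68 RPKM), 260 in the double mutant (6.86 RPKM), 91 in idn2-1 and 89 in nrpe1-11, against 3 and 2 in WT. Its triple over double read ratio was 0.681 (0.527 to 0.873), with a corrected difference of -0.65. SDC, an F-box gene silenced by methylated repeats, had 5 and 22 reads, against 6 and 19 in WT. AT4G20365 had 0 reads in both mutants and in WT but 218 in nrpe1-11, and FWA had 0 and 3 reads.

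**Figure D3:**
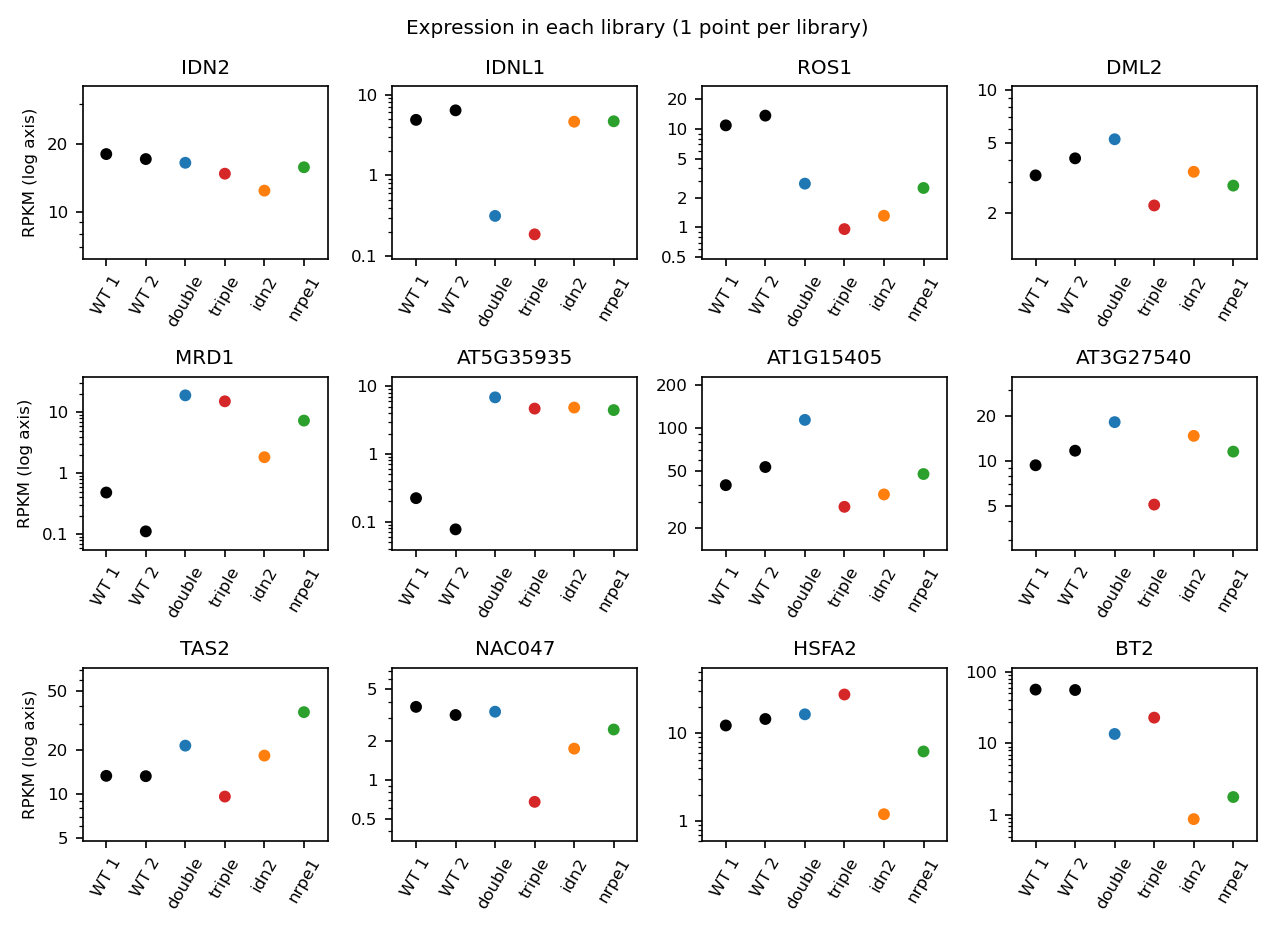
RPKM of 12 genes in each of the 6 libraries, on log axes, with 1 point per library. IDNL1 is low in both compared mutants, ROS1 stands at 2.79 RPKM in the double mutant and 0.962 in the triple mutant, MRD1 and AT5G35935 are raised in both, and HSFA2 and BT2 are low in the idn2-1 library but not lower in the triple than in the double mutant.

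RdDM machinery genes differed little between the mutants. Of 23 listed genes 21 were tested, 1 passed 2-fold upward (1.14% of all genes did) and 0 downward, and the median corrected difference was -0.02, as over all genes. The gene past 2-fold was NRPD4, a subunit shared by RNA polymerases IV and V, with 23 reads in the triple mutant, 28 in the double mutant and 10 and 36 in WT. Its ratio of read ratios was 2.79 (1.07 to 7.72), but triple minus double without the subtraction was 0.66. AGO4, the Argonaute that carries the small RNAs, had 139, 407, 168 and 382 reads, with a ratio of 0.741 (0.564 to 0.974). SUVH9, which binds methylated DNA and recruits RNA polymerase V, had 361, 777, 250 and 738 reads and a ratio of 1.31 (1.08 to 1.59). Of 14 tested genes of maintenance methylation and heterochromatin, 0 passed 2-fold and the median was -0.05. Among the relatives of IDN2, FDM3 (37, 134, 49 and 129 reads), FDM4, FDM5 and SGS3 had ratios between 0.694 and 1.06, with intervals that include 1.

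Heat shock genes had the highest median of the pathway lists, 0.47, with 7 of 10 tested genes above 0 and 3 below, the lowest at -0.88. Of all 22032 tested genes, 10234 lay above 0. HSFA2, the heat-induced transcription factor, had 132 reads in the triple mutant (27.45 RPKM), 163 in the double mutant (16.3 RPKM) and 57 and 148 in WT (12.2 and 14.5 RPKM), so the triple mutant was the highest library. Its ratio of read ratios was 2.004 (1.35 to 3.00), with a corrected difference of 0.94. The chaperone genes HSP70 (489, 699, 466 and 1075 reads), HSP90.1 (203, 332, 178 and 476) and HSP101 (220, 414, 145 and 433) had ratios of 1.54 (1.31 to 1.81), 1.56 (1.21 to 2.01) and 1.51 (1.17 to 1.96). In HSP70 and HSP90.1 the triple mutant lay near WT replicate 1 and the double mutant below WT replicate 2 of like depth. Their ratios thus rest mainly on low levels in the double mutant. HSP17.6A was the heat shock gene past 2-fold, on 2 reads in the triple mutant against 0. limma called 0 of the 11 listed genes in its fit.

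The other lists held 2 genes past 2-fold, JAZ8 with 3 reads in each mutant and ELF4 with 11 and 17, both upward. Rapid stress and touch genes had a median of 0.21, with 13 of 15 above 0, and sugar starvation genes 0.19, with 11 of 14 above 0. The share above 0 over all tested genes was 10234 of 22032. All 11 anthocyanin and flavonoid genes lay above 0, from 0.01 to 0.36, with a median of 0.16, but without the subtraction the median was -0.08. With the smooth WT trend 6 of these 11 genes lay above 0, and 11539 of all 22032. The sugar list's median without the subtraction was -0.07. Jasmonate genes had a median of 0.13 (11 of 16 above 0) and salicylic acid defence genes 0.12 (10 of 13), the latter -0.12 without the subtraction. JAZ1, a repressor of jasmonate signalling, had 113, 177, 103 and 327 reads in the triple mutant, the double mutant and the WT pair, and a ratio of 1.93 (1.38 to 2.71). Clock genes (0.08), cold and abscisic acid genes (0.06), glucosinolate genes (0.04), nutrient deficiency genes (-0.03), photosynthesis genes (-0.05), 148 cytosolic ribosomal protein genes (0.04) and 10 control genes (0.01) had medians close to that over all genes, -0.02. For the most highly expressed of these, such as photosynthesis genes, RPKM depended strongly on depth. Their medians therefore cannot show that the mutants had equal levels.

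**Figure D4:**
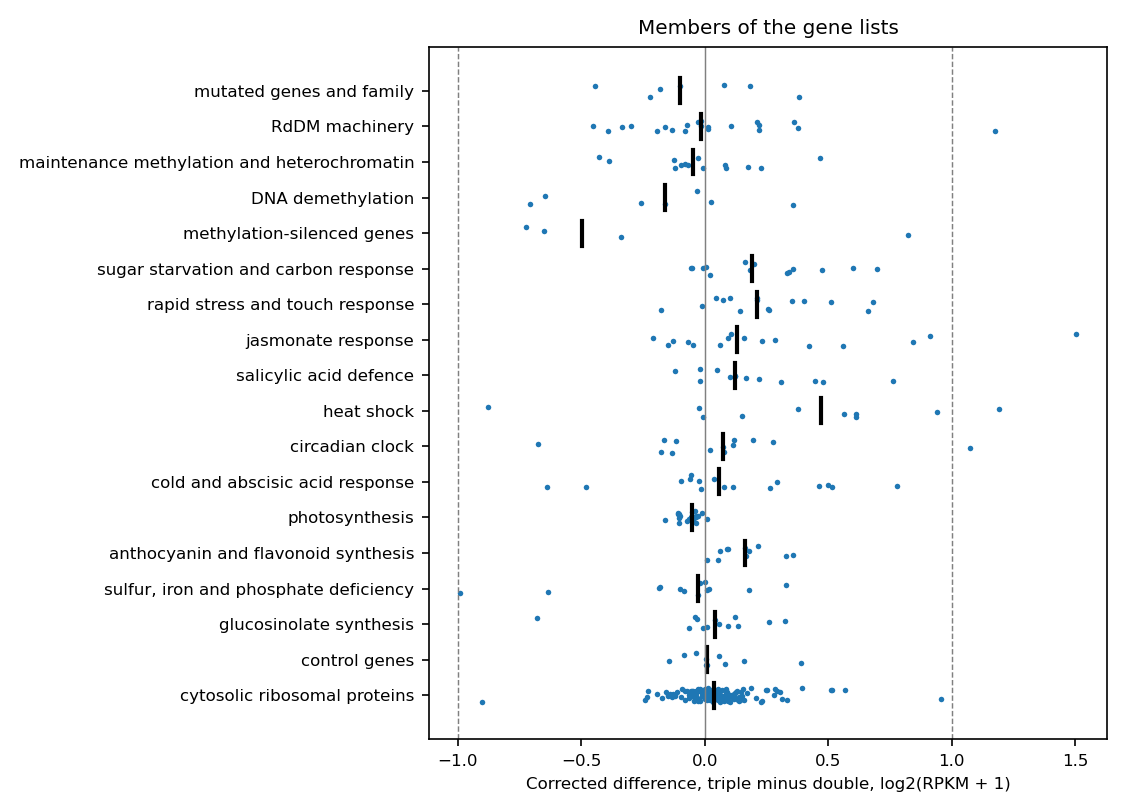
Corrected difference of each tested list member (points) with the list median (black bar), on the log2(RPKM + 1) scale. Dashed lines mark 2-fold. Medians run from -0.50 for genes silenced by methylation to 0.47 for heat shock genes, and 4 members pass 2-fold, all upward.

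The 17 genes past 2-fold with at least 200 reads split into 10 upward and 7 downward. In all 10 upward genes WT replicate 1 was the lowest of the 4 libraries, and triple minus double without the subtraction ran from -0.22 to 0.56. bZIP3, a leucine zipper transcription factor, had 37.2 RPKM in the triple mutant, 30.7 in the double mutant, 15.9 in WT replicate 1 and 31.5 in WT replicate 2. The metacaspase gene MC9 had 16.1, 15.7, 6.93 and 14.5 RPKM. Of the 7 downward genes, 6 were in the supported subset. The exception was AT3G59630, of the DPH2 family of diphthamide synthesis, with 47, 199, 78 and 157 reads and a ratio of read ratios of 0.454 (0.291 to 0.703).

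The effect of idn2-1 was then compared between plants with and without IDNL1 and IDNL2. This contrast was added after the data had been seen. It sets a shallow minus a deep library against the shallow idn2-1 library minus the mean of both WT libraries. Depth therefore does not fully cancel in it. limma tested (triple minus double) minus (idn2 minus WT) for each gene and called 129 genes upward (0.577%) and 50 downward (0.224%) at an adjusted p under 0.05. Of the 129 genes, 119 were at least 2-fold lower in the idn2-1 library than in WT replicate 1, with a corrected triple minus double difference under 2-fold. The contrast favours such genes: low idn2-1 levels raise it, and 2.25% of all tested genes had a corrected difference past 2-fold. The share of all genes lower in idn2-1 or nrpe1-11 is not given here. Each genotype is 1 library, so genotype and library cannot be told apart, and 110 of these 119 genes were also at least 2-fold lower in the nrpe1-11 library than in WT replicate 1.

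Sugar-responsive genes were called in this contrast for 7 of 15 members, all upward. This list was chosen with earlier results of these data known, and its median idn2-1 minus WT replicate 1 was -1.43. Low idn2-1 levels raise the contrast, so the number of calls is no independent support. BT2, a BTB and TAZ domain protein whose gene is repressed by sugar, stood at 22.9 RPKM in the triple mutant, 13.5 in the double mutant, 56.3 and 55.6 in WT, 0.881 in idn2-1 and 1.79 in nrpe1-11. BT2 was thus low in idn2-1 and higher in the triple than in the double mutant, with a difference of effects of 5.64 ± 0.50 (SE, limma adjusted p 4.51e-25). It was 5.63 with idn2 minus WT replicate 2 alone, where both effects are a shallow minus a deep library. PHI-1, an EXORDIUM-like gene, had 76.6 RPKM in the triple mutant, 49.7 in the double mutant, 97.0 and 95.9 in WT and 5.76 in idn2-1. DIN10, a dark-induced raffinose synthase-like gene, had 13.6, 15.4, 56.4 and 61.0 RPKM in the triple mutant, the double mutant and the WT pair. Its level in idn2-1 was 9.15 RPKM. In BT2 and PHI-1, as in DIN10, the double mutant already stood below both WT libraries.

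Rapid stress and touch genes were called for 9 of 15 members, all upward. Here too the list was chosen with earlier results known, as were the jasmonate and heat shock lists. The median idn2-1 minus WT replicate 1 of the stress and touch list was -1.74, which by itself raises the contrast. The summed level of that list was 1043.46 RPKM in the triple mutant, 811.51 in the double mutant, 1037.52 and 933.22 in WT, 303.52 in idn2-1 and 259.90 in nrpe1-11. SZF1, a salt-inducible zinc finger gene, had 102.50, 79.5, 88.1 and 87.6 RPKM in the triple mutant, the double mutant and the WT pair, but 18.6 in idn2-1. ERF104, an ethylene response factor, had 68.8, 68.9, 61.9 and 66.6 RPKM, and 9.19 in idn2-1. HSFA2 stood at 1.1998 RPKM in idn2-1, with 5 reads, against 27.45 in the triple mutant. Jasmonate genes were called for 3 of 16 members (JAZ1, JAZ7 and VSP1) and heat shock genes for 3 of 11 (HSP90.1, HSP70 and HSFA2), all upward. ROS1 was not called: its difference of effects was 1.57 ± 0.91, and limma gave an adjusted p of 1.00.

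**Figure D5:**
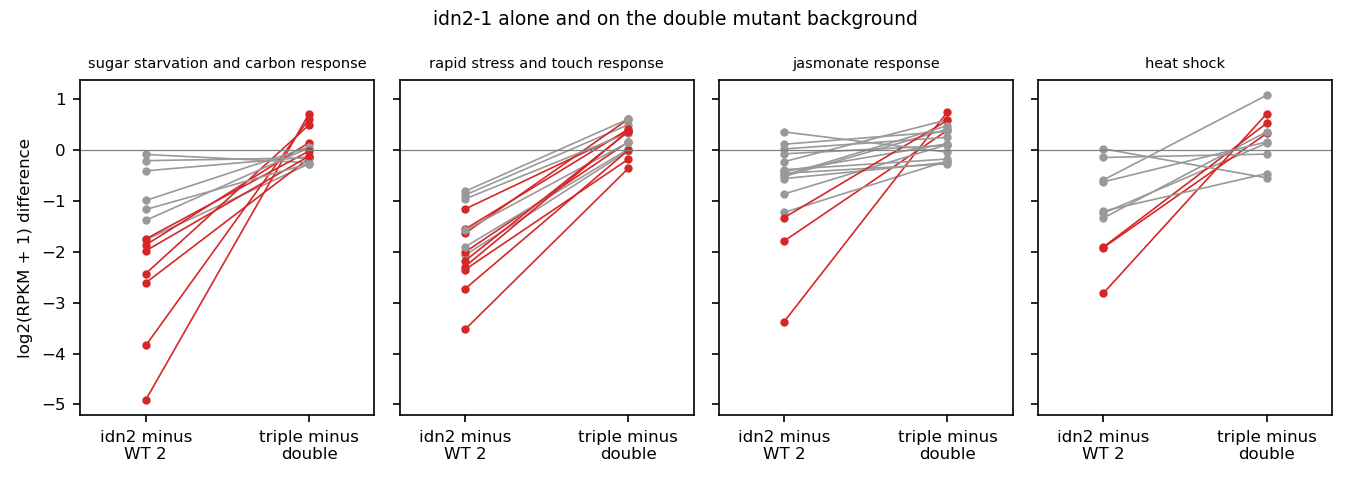
Difference in log2(RPKM + 1) made by idn2-1 alone (idn2 minus WT replicate 2) and on the double mutant background (triple minus double), for members of 4 lists. Red lines are genes for which limma called a difference between the effects, and most run from below -1 to near 0.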

How the data were processed

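Leaf mRNA libraries were made by the Illumina TruSeq mRNA protocol and Bowtie was used, per the labels and the submitters' processing notes. The authors deposited RPKM per gene on TAIR8 gene models; multi-read, duplicate and strand handling are not given in the sources used here. In every library 100% of RPKM values times gene span were whole multiples of 1 step (tolerance 1e-06 steps). The lowest multiple was 1, read as 1 added read and taken off to give reads. No count test was run on these reads, which served for ratios with exact 95% intervals (Clopper-Pearson, or conditional for ratios of ratios) and a floor of 3 reads; these cover counting error only. Positions are TAIR8 with 1 added to start and end, and can be off by 1 base. Symbols and classes came from TAIR10.1, which matched 32377 of the gene IDs; 3510 genes overlap another.

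Values were analysed as log2(RPKM + 1), which understates changes of low genes, for genes that reached 1 RPKM in any library fitted. limma 3.58.1 (R 4.3.3) used a mean per genotype, an intensity trend and Benjamini-Hochberg adjustment, with 1 residual degree of freedom from the WT pair and infinite prior degrees of freedom, so its p-values rest on the spread of the WT pair, which may be technical. Scripts ran in Python 3.11.15 and were tested on simulated data. In that test limma and the supported subset also called some unchanged genes with few reads, so calls on few reads need care. Alternatives were pseudocounts of 0.5 and 5, filters of none and 5 RPKM, median-of-ratios and quantile scaling, a smooth trend in the WT difference (lowess fraction 0.2), no subtraction, and limma without a spread trend.

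Named genes were up to 12 per direction of the supported subset by the smaller of their corrected and uncorrected differences, list members in that subset or called by limma, and IDN2, IDNL1, IDNL2, ROS1, MRD1, HEI10 and AT5G35935; other named genes were chosen after their values were seen. The comparison, members and lists were chosen with earlier results of these data known. The ribosomal list holds the 158 genes with a TAIR10.1 product named ribosomal protein and a note of the cytosolic ribosome. It replaced a planned rule on product names alone, which matched few genes.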

Additional observations from a re-analysis of the deposited data

Results flagged for a closer look

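Listed or named genes whose response to idn2-1 differed with and without IDNL1 and IDNL2 are given here by that difference, in log2 units from the limma contrast of effects at an adjusted p under 0.05. Each rests on 1 library per mutant genotype, and idn2-1, which sets most of them, is 1 library. Upward differences among sugar-responsive genes were 2.39 for DIN10, 4.46 for PHI-1, 5.64 for BT2, 2.93 for the beta-amylase gene BAM5, 2.002 for TPS8, 1.71 for TPS11 and 1.83 for XTR6. Rapid stress and touch genes gave 1.67 for TCH3, 2.44 for TCH4, 2.06 for ZAT10, 2.05 for WRKY33, 1.84 for WRKY53, 3.08 for ERF6, 2.68 for ERF104, 2.55 for SZF1 and 2.72 for DREB26. Jasmonate genes gave 1.92 for JAZ1, 4.08 for JAZ7 and 1.99 for VSP1. Heat shock genes gave 2.102 for HSP90.1, 2.39 for HSP70 and 3.41 for HSFA2. CYP707A3, an abscisic acid 8'-hydroxylase, gave 3.59, with 1.17 RPKM in idn2-1 and 16.9 to 21.2 RPKM in the 4 compared libraries. ACD6, a regulator of salicylic acid defence, differed downward, by -1.49, with 53.0 RPKM in idn2-1, 36.1 in the triple mutant, 40.7 in the double mutant and 19.5 and 21.8 in WT. Downward differences in the supported subset were -3.06 for AT4G26290, -1.57 for AT1G15405, -2.100 for AT3G27540 and -1.51 for TAS2, which stood at 16.6, 34.2, 14.8 and 18.25 RPKM in idn2-1. AT3G27540 and TAS2 were chosen after their values were seen, as were the small nucleolar RNA genes AT1G74456 (-1.82), AT2G20721 (-3.96), AT3G47348 (-3.30) and AT4G39363 (-1.97), which had 1, 0, 1 and 1 reads in the triple mutant. With idn2 minus WT replicate 2 alone, where depth is matched, these 4 differences were -1.12, -3.76, -2.51 and -2.22. For AT1G74456 and AT3G47348 the WT pair showed a like gap, and the corrected triple minus double difference was -0.25.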

How the results depend on the processing

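The count of genes past 2-fold (496) went to 811 at a pseudocount of 0.5, 42 at 5, 215 at a filter of 5 RPKM, 886 with the smooth WT trend (691 of its 740 upward genes had under 10 reads over the 4 libraries), 289 without subtraction and 200 by a read rule chosen after seeing the data (a 2-fold ratio of read ratios with its interval clear of 1, 106 up and 94 down). The supported subset (47) fell to 6 at a pseudocount of 5 and 29 at 5 RPKM. limma calls (13) went to 43 with median-of-ratios scaling, 5 with quantile normalization and 20 without the spread trend, and 10 of the 13 genes lost the call in at least 1 alternative. Calls of the added contrast of effects (179) went to 471 with median-of-ratios and 299 with quantile normalization, and 6 of its 24 listed genes lost the call in at least 1 alternative, all 6 of them without the spread trend. The causes were not tested. No corrected difference of the 23 genes named by rule that was past 2-fold reversed. No paired analysis was possible because the mutant groups have 1 library each and share fewer than 2 replicate numbers with WT. Leaving out a WT library was not run: it removes the subtraction and the only residual degree of freedom. Depth limits genes under 50 reads most.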

Other observations

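AT2G21310, a pseudogene on chromosome 2 (TAIR8, 9129703 to 9132293), had 35 reads in the double mutant (2.38 RPKM) and 0 in each of the other 5 libraries, the triple mutant included. With a floor of 3 reads for the triple mutant library, the double mutant was at least 5.601-fold higher. It was the only gene with 0 reads in both WT libraries and 10 or more over the triple and double mutants.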
